A study of Mus musculus with 2 samples.

Results

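The 42 genes described here encode the kinases, checkpoint proteins, kinetochore subunits, condensins and cytokinesis factors that carry a cell through mitosis. They were taken by gene name alone, from the 55536 genes of the GENCODE M21 annotation against which both libraries were quantified. The tissue was the midbrain of B6NCrl mouse embryos at day 12.5 of gestation. Male and female embryos were pooled, 120 for replicate 1 and 88 for replicate 2, and each library was made from 10 ng of RNA by oligo-dT priming and tagmentation, with ERCC control RNAs added. All samples belong to this single untreated group of 2 libraries, so there is no contrast between conditions. The comparisons are therefore between genes, between transcripts of a gene, between the 2 pools and between the 2 annotations used for quantification.

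In mitosis, cyclin B bound to the kinase Cdk1 drives cells into division, condensin and topoisomerase II compact and untangle the chromosomes, and kinetochores built on centromeric chromatin attach them to spindle microtubules. The spindle assembly checkpoint holds back the anaphase-promoting complex until every kinetochore is attached. That ubiquitin ligase then marks securin and cyclin B for destruction, separase cuts cohesin, and the midzone machinery splits the cell. In the embryonic midbrain the dividing cells are mainly neuroepithelial progenitors that line the ventricle. Transcription of many mitotic genes peaks late in the cell cycle, and 2 short promoter elements are known for it. They are the cell cycle genes homology region (CHR), whose core reads TTTGAA and which is bound by the MuvB complexes, and the CCAAT box, which is bound by NF-Y.

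Because these elements are shared by many mitotic genes, the 150 bases before the annotated start of 8 members are shown, with matches to TTTGAA and CCAAT on either strand in capitals. The sequences are from RefSeq on build GRCm38.p6, which has the coordinates of mm10, and read 5′ to 3′ on the gene's strand. They were picked to show stretches with both motifs, with CCAAT alone and with neither. The stretches lie at chr11:99024190-99024339 on the minus strand for Top2a, chr10:69352913-69353062 on the minus strand for Cdk1, and chr4:118437344-118437493 on the minus strand for Cdc20. Those of Espl1 at chr15:102296143-102296292 and of Plk1 at chr7:122159285-122159434 are on the plus strand. Mki67 follows at chr7:135716380-135716529 and Ccnb2 at chr9:70421555-70421704, both on the minus strand, and Birc5 at chr11:117849087-117849236 on the plus strand.
Top2a: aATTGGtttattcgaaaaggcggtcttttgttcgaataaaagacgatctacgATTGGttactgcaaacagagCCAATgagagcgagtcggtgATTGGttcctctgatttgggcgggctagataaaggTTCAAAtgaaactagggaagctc
Cdk1: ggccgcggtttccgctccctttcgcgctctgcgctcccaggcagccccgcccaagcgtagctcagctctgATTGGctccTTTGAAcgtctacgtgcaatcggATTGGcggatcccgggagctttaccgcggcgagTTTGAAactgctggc
Cdc20: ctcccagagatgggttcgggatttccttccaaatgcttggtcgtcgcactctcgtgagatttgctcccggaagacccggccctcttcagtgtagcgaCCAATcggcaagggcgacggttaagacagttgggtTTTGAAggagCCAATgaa
Espl1: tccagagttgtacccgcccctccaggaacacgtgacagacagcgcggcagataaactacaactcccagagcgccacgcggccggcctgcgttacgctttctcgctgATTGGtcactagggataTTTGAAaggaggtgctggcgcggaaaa
Mki67: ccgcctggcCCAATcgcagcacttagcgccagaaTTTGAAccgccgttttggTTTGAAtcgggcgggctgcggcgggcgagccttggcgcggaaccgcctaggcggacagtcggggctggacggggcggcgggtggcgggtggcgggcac
Ccnb2: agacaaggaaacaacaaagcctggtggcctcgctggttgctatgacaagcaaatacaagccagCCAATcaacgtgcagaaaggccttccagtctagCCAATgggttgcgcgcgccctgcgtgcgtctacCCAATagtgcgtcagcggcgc
Plk1: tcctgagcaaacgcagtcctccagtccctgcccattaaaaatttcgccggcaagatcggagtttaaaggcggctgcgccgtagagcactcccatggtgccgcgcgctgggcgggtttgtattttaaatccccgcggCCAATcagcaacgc
Birc5: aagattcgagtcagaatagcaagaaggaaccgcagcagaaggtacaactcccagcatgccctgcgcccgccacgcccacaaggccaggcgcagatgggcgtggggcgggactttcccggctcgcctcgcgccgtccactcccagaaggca

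In Cdc20, the TTTGAA match began 18 bases before the start, between CCAAT matches that began 53 and 8 bases before it. In Espl1, TTTGAA began 27 bases and the CCAAT match 44 bases before the start. Cdk1 held TTTGAA at 71 and at 15 bases before the start, and CCAAT at 80 and 48 bases before it within the printed stretch. Ccnb2 had CCAAT matches at 87, 54 and 21 bases before the start, while a TTTGAA match lay 5 bases after the start and so outside the stretch shown. Likewise, the TTTGAA match of Plk1 lay 31 bases after its start. No match to either motif was found for Birc5, which says only that these letters are not in its window.

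RefSeq windows from 250 bases before to 50 bases after a start were found for 35 of the 42 members, as 38 windows, since some members have more than 1 annotated start. The windows of Aurkb, Ccna2, Cdc25c, Incenp, Smc4, Spc24 and Tpx2 were not analysed here. TTTGAA was present in 26 of the 38 windows (68.4%), in 23 genes, against 17.9% of all 32851 windows of the same length. CCAAT was present in 29 of the 38 (76.3%), in 26 genes, against 37.4% of all windows. Both motifs occurred together in 24 windows (63.2%), against 6.95% of all windows, and only 1 pair of a TTTGAA and a CCAAT match overlapped. Among the 23 windows of DNA replication genes, which peak earlier in the cycle, TTTGAA was found in 17.4% and CCAAT in 56.5%. Windows of other spindle and cytokinesis genes held TTTGAA in 80% and CCAAT in 60% of 20 windows, and those of other kinetochore and centromere genes in 35.3% and 67.6% of 34 windows. These are matches of letters, not measured binding.

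The motif positions differed from each other. Of the 34 TTTGAA matches in member windows, 24 began between 50 bases before and 50 bases after the start, and 16 of these lay after the start. Matches beginning in the first 25 bases after the start were found in 23.7% of member windows, against 1.31% of all windows. Of the 64 CCAAT matches, 42 began in the 100 bases before the start. The most filled bin, from 75 to 50 bases before the start, held a CCAAT match in 34.2% of member windows, against 6.99% of all windows. Overlapping windows of 1 gene share matches, and each window was counted. All positions are counted from the RefSeq start. In 24 of the 38 member windows, the first bases after that start were found in a GENCODE transcript of the gene. For the other windows, placement before or after the start is less sure. In a window of only the 100 bases before the start, 8 members held a TTTGAA match in place of 23. This was 21.1% of member windows, against 5.77% of all windows.

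**Figure D1:**
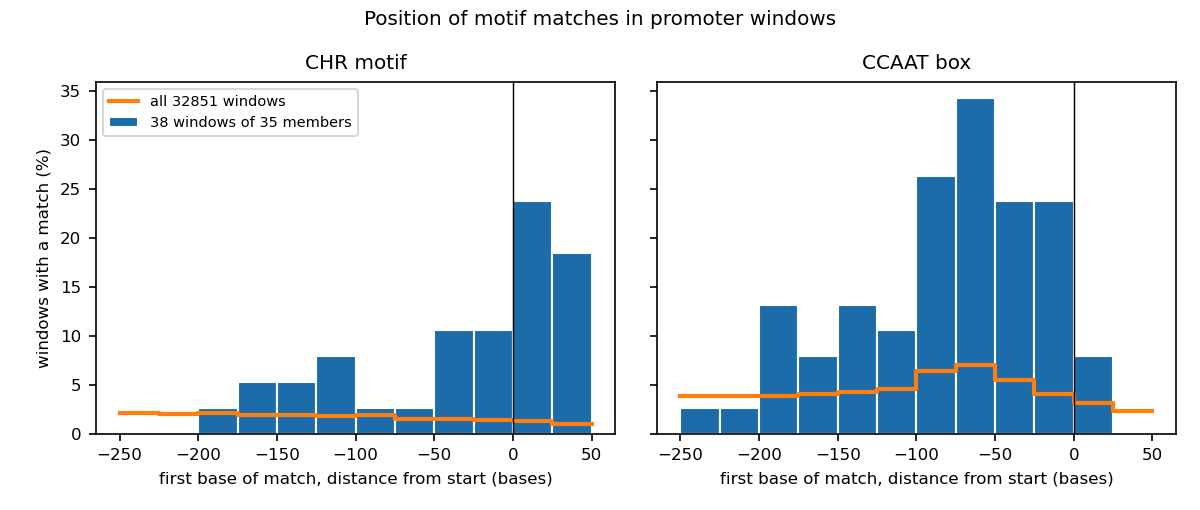
Percent of promoter windows (y axis) with a match to the CHR motif (left) or the CCAAT box (right) that begins in each 25-base bin of distance from the annotated RefSeq start (x axis). Bars are the 38 member windows and lines are all 32851 windows; the highest CHR bin of members is the first after the start (23.7% against 1.31%) and the highest CCAAT bin lies before it (34.2% against 6.99%).

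Depth and tissue were checked before the members were read. The libraries held 29056772 gene counts in replicate 1 and 37122519 in replicate 2. All 5 midbrain markers were detected, from En2 at 1.39 TPM to Otx2 at 143 TPM (means of 2). TPM is the transcript abundance per length, scaled to a fixed total per library over genes and spike-ins. Genes took 903415 TPM in replicate 1 and 919072 TPM in replicate 2, so TPM levels of replicate 1 are lowered slightly. Marker sums in replicates 1 and 2 were 2645 and 2658 TPM for 7 neural progenitor genes, 2457 and 2358 TPM for 8 neuron genes, and 8572 and 9905 TPM for 7 erythroid genes, mostly Hbb-y. Sums for 6 mesenchyme genes were 800 and 1142 TPM, for 6 endothelial genes 103 and 113 TPM, and for 5 microglia genes 36.1 and 37.8 TPM, with no marker at 0 in a library. Dividing cells of any type carry mitotic transcripts, and the part of each type in the members' levels was not tested. In such bulk RNA, fewer cells of a type and less RNA per cell cannot be told apart.

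All 42 mitotic genes were expressed at 1 TPM or more in both libraries, a limit passed by 59.4% of the 22028 protein-coding genes. Their median was 83.9 TPM, and the median of the 13083 coding genes past that limit was 22.2 TPM. Over all M21 transcripts, each of the 42 stood above that coding median, and the lowest was at percentile 53.8. On other scales, for which no coding median is given here, some members lay under 22.2 TPM. With the older M4 annotation Anln was at 19.5 and Espl1 at 21.4 TPM. In transcripts with a complete coding sequence, Smc4 was at 10.2 and Cenpf at 16.3 TPM, among others (means of 2). Single-library values ran from 24.7 TPM for Anln to 239 TPM for Top2a. In mean TPM, 17 members were at 100 or more, 14 were between 50 and 100 and 11 were under 50, with a 9.32-fold range from lowest to highest. Counts were well filled, from 705 for Pttg1 in replicate 1 to 19432 for Top2a in replicate 2. Together the 42 genes held 0.591% of gene counts in replicate 1 and 0.597% in replicate 2. The median coefficient of variation between the 2 libraries was 3.11%.

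**Figure D2:**
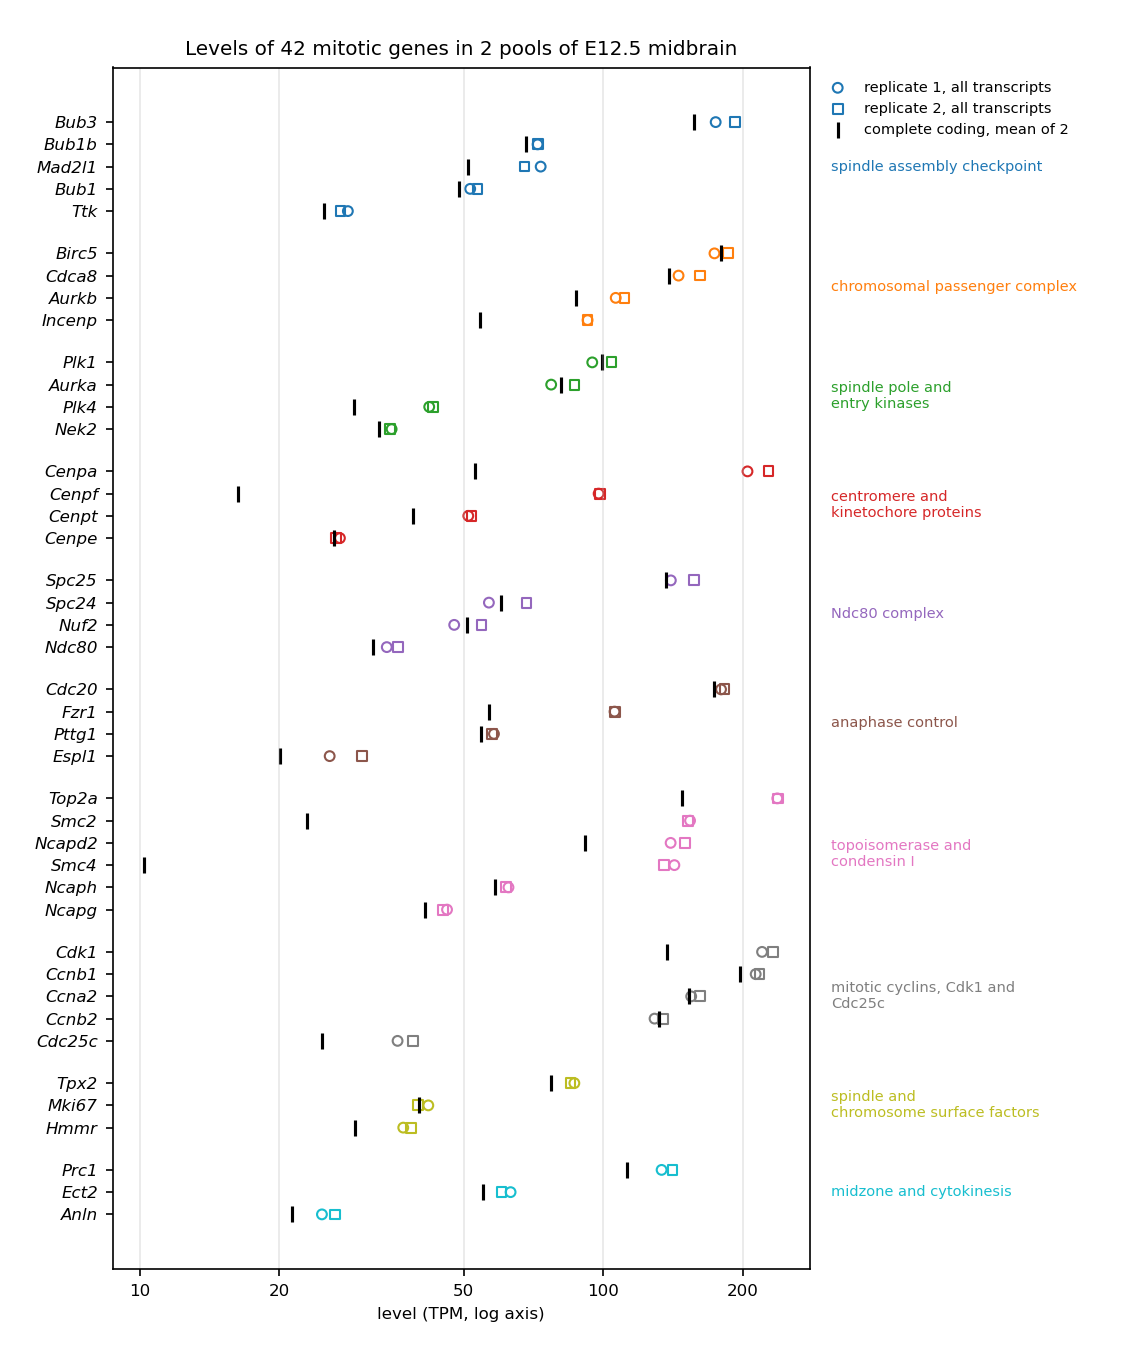
Level in TPM (x axis, log scale) of each of the 42 genes, grouped by role and sorted by mean within a role. Circles are replicate 1 and squares replicate 2 for all transcripts of the gene, from 24.7 to 239 TPM, and black ticks are the mean over complete coding transcripts only, which lies far to the left for Smc4, Smc2, Cenpf and Cenpa.

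Among the cyclins and their kinase, 4 of 5 genes lay among the 15 highest members. Cdk1, the kinase that triggers mitosis, stood at 220.3 TPM in replicate 1 and 232 TPM in replicate 2. Ccnb1, its principal mitotic cyclin, was at 213 and 218 TPM, and Ccnb2, a related B-type cyclin, at 129 and 135 TPM. Cdk1 and Ccnb1 lay close together, at 226 ± 8.63 and 216 ± 2.95 TPM (SD, n = 2), with both Cdk1 values above both Ccnb1 values. Retained-intron models held 39.5% of the Cdk1 TPM, and in complete coding transcripts the order was the other way, with Cdk1 at 137 ± 0.721 and Ccnb1 at 198 ± 1.82 TPM (SD, n = 2). Ccna2, the cyclin of S phase and mitotic entry, was at 155 and 162 TPM. The phosphatase Cdc25c, which removes inhibitory phosphates from Cdk1, was far lower at 36.0 and 38.9 TPM. Within this role the highest gene was 6.05-fold above the lowest.

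Top2a, the topoisomerase that untangles sister chromatids, was the highest of all members at 238 and 239 TPM over all transcripts. Noncoding models held 37.9% of this, and in complete coding transcripts Top2a was at 148 ± 0.566 TPM (SD, n = 2), rank 6 of the 42. The condensin I subunits fell into 2 tiers when all transcripts were counted. The SMC ATPases Smc2, at 154 and 153 TPM, and Smc4, at 142 and 135 TPM, stood with the HEAT-repeat subunit Ncapd2, at 139.9 and 150.2 TPM. The kleisin Ncaph, which bridges the SMC heads, was at 62.5 and 61.7 TPM, and the second HEAT-repeat subunit Ncapg at 46.0 and 45.1 TPM. This order depended on which transcripts were counted, as described with the transcript classes.

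The 4 subunits of the Ndc80 complex, which grips microtubule ends and is built with 1 copy of each subunit, were not at like levels. Spc25 stood at 140.0 and 157 TPM, Spc24 at 56.7 and 68.3 TPM, Nuf2 at 47.7 and 54.6 TPM and Ndc80 itself at 34.1 and 36.1 TPM. Highest and lowest differed 4.23-fold, more than the spread between the libraries (149 ± 12.2 for Spc25 and 35.1 ± 1.39 TPM for Ndc80, SD, n = 2). Spc24 at 62.5 ± 8.24 and Nuf2 at 51.2 ± 4.89 TPM were less clearly apart, although both Spc24 values were above both Nuf2 values. With the older M4 annotation they overlapped, Spc24 at 51.03 and 58.25 TPM and Nuf2 at 50.27 and 57.46 TPM. All 4 subunits had the lower TPM in replicate 1. This direction alone does not set them apart, since all genes together also took less TPM there, 903415 against 919072 in replicate 2. The summed TPM of the members was likewise lower in replicate 1, at 4119.7 against 4290.6.

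Centromere and kinetochore proteins outside that complex had the widest spread of any role over all transcripts, 8.07-fold, but spread only 3.25-fold over complete coding transcripts. Cenpa, the histone H3 variant that marks centromeric chromatin, was at 205 and 227 TPM. Cenpf, a large protein of the outer kinetochore, was at 97.8 and 98.4 TPM. Cenpt, which links centromeric chromatin to the Ndc80 complex, followed at 51.2 and 52.0 TPM, and the kinesin Cenpe, which moves chromosomes toward the spindle equator, at 27.0 and 26.5 TPM. Much of the Cenpa and Cenpf signal came from transcripts that are not annotated with a complete coding sequence.

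In the spindle assembly checkpoint, Bub3 was the outlying high gene. Bub3, the adaptor that brings Bub1 and Bub1b to kinetochores, was at 175 and 193 TPM. Its partners stood lower, Bub1b (BubR1, a part of the mitotic checkpoint complex) at 72.2 in both libraries and the kinase Bub1 at 51.7 and 53.5 TPM. Mad2l1, the Mad2 protein that binds and blocks Cdc20, was at 73.3 and 67.7 TPM. The kinase Ttk (Mps1), which starts checkpoint signalling, was the lowest at 28.1 and 27.1 TPM. Over all M21 transcripts, Ttk, Bub1, the Bub1b and Mad2l1 pair and Bub3 were separated by more than the spread between libraries. Bub1b and Mad2l1 overlapped there. The place of Mad2l1 depended on the transcripts counted. Over complete coding transcripts it was at 53.85 and 48.26 TPM, overlapping Bub1 (48.3 and 49.2) and below Bub1b (68.25 and 68.06). With the older M4 annotation, both Mad2l1 values (90.2 and 83.0 TPM) were above both Bub1b values (76.1 and 76.2 TPM).

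The chromosomal passenger complex, which corrects wrong attachments, had the narrowest range of any role over all transcripts, 1.94-fold over 4 genes, which was 3.32-fold and not the narrowest over complete coding transcripts. Birc5 (survivin) stood at 174 and 186 TPM and Cdca8 (borealin) at 145 and 162 TPM. The kinase Aurkb was at 106 and 111 TPM, and the scaffold Incenp at 92.6 in both. Birc5, Cdca8 and Aurkb were above the median of the 42 members, and so was Incenp over all M21 transcripts, though not over complete coding transcripts (54.2 TPM, with a median of 54.8) or with the older M4 annotation (62.7 TPM, with a median of 86.5).

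Kinases of the spindle pole and of mitotic entry were led by Plk1, which acts from centrosome maturation to cytokinesis, at 94.7 and 104 TPM. Aurka, the centrosomal aurora kinase, was at 77.2 and 86.7 TPM. Plk4, which sets centriole number, was at 42.1 and 42.9 TPM, and Nek2, which dissolves the centrosome linker, at 35.0 and 34.6 TPM. Tpx2, the microtubule factor that activates Aurka, was at 86.7 and 85.1 TPM. Its level and that of Aurka overlapped (85.9 ± 1.13 and 82.0 ± 6.68 TPM, SD, n = 2). The spindle protein Hmmr was at 37.0 and 38.4 TPM, and Mki67, the Ki-67 protein that coats mitotic chromosomes, at 41.9 and 39.9 TPM.

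Among the genes of anaphase control, Cdc20, the activator of the anaphase-promoting complex at anaphase onset, was at 179.7 and 183 TPM. Fzr1 (Cdh1), the activator that takes over at mitotic exit, was lower at 106 in both libraries. Securin (Pttg1) stood at 58.1 and 57.5 TPM, above the separase Espl1 that it inhibits, at 25.7 and 30.1 TPM. The means of securin and separase, 57.8 ± 0.474 and 27.9 ± 3.13 TPM, were farther apart than their spread between libraries (SD, n = 2). For the midzone and cytokinesis, the microtubule bundler Prc1 was at 134 and 141 TPM, Ect2, the exchange factor that activates RhoA, at 63.1 and 60.4 TPM, and the contractile-ring scaffold Anln at 24.7 and 26.4 TPM.

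Transcripts of the 42 genes were sorted into classes from the annotation. A transcript was called complete coding when its type is protein_coding and neither end of its coding sequence or mRNA is marked as not found. This class held 74.3% ± 0.277 of the members' TPM (SD, n = 2) in 84 transcripts, and 87.1% of their counts in each library. Retained-intron transcripts took 8.70% ± 0.214 of TPM, transcripts annotated for nonsense-mediated decay 6.17% ± 0.0110, other noncoding transcripts 6.11% ± 0.0145 and coding transcripts with an incomplete end 4.74% ± 0.0594. Shares of TPM exceeded shares of counts for noncoding classes, since TPM divides by length and many of these models are short. The median gene had 90.2% of its TPM in complete coding transcripts, against 85.9% over detected coding genes, and 21 members had 90% or more.

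For 4 of the 42 members, Smc4, Smc2, Cenpf and Cenpa, the leading transcript was not complete coding in either library, against 10.5% of the 13083 detected coding genes. Smc4 (ENSMUSG00000034349.14, chr3:69004738-69034623) had 9.95 and 10.5 TPM in complete coding transcripts, out of 142 and 135 TPM. Its leading model, Smc4-206, lacks the end of its coding sequence, is 1163 bases long and took 75.4 and 74.5 TPM. The decay-annotated Smc4-207, of 4057 bases, took a further 32.7 and 30.0 TPM. These models together held most of the Smc4 signal in both libraries.

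In Smc2 (ENSMUSG00000028312.19, chr4:52439243-52488260), the noncoding Smc2-203, of 643 bases, was listed at 77.2 and 84.3 TPM. The full-length Smc2-201, of 5404 bases, was at 23.0 and 22.4 TPM. Complete coding transcripts of Smc2 held 15.0% of its TPM (mean of 2) but 57.9% and 58.2% of its counts. Cenpf (ENSMUSG00000026605.14, chr1:189640606-189688086) was led by Cenpf-203, which lacks an annotated end, at 45.7 and 48.6 TPM. The only complete coding Cenpf transcript with signal, Cenpf-204 of 11130 bases, was at 17.0 and 15.5 TPM and held 54.8% and 51.4% of the counts. Both genes thus had a majority of counts and a minority of TPM in full-length models.

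Cenpa (ENSMUSG00000029177.9, chr5:30666777-30674830) was led by Cenpa-202, annotated for nonsense-mediated decay, at 113 and 124 TPM, while the complete Cenpa-205 was at 51.4 and 52.6 TPM. Here the share of counts in complete coding transcripts was also low, at 28.7% and 27.2%. Fzr1 was split between the coding Fzr1-205, at 47.0 and 49.0 TPM, and the decay-annotated Fzr1-201, at 42.5 and 38.1 TPM. Pttg1 was the only member whose leading transcript changed, to Pttg1-203 with 26.9 TPM in replicate 1, against Pttg1-202 with 27.2 TPM in replicate 2. The 2 Pttg1 transcripts have the same coding length of 597 bases, and their levels were close in both libraries. Estimates of this kind divide reads among overlapping models, and the deposited lower and upper TPM bounds differed in width. In replicate 1 they were 66.1 to 81.9 for Smc2-203 and 20.8 to 23.2 for Smc2-201. For Cenpa-202 they were 99.8 to 115.7, and for Cenpa-205 44.4 to 53.4. The bounds of Smc4-201, 3.37 to 11.6, and of Pttg1-203, 2.69 to 29.6, were wide for their levels. Whether such bounds cover errors in the annotated models was not tested.

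**Figure D3:**
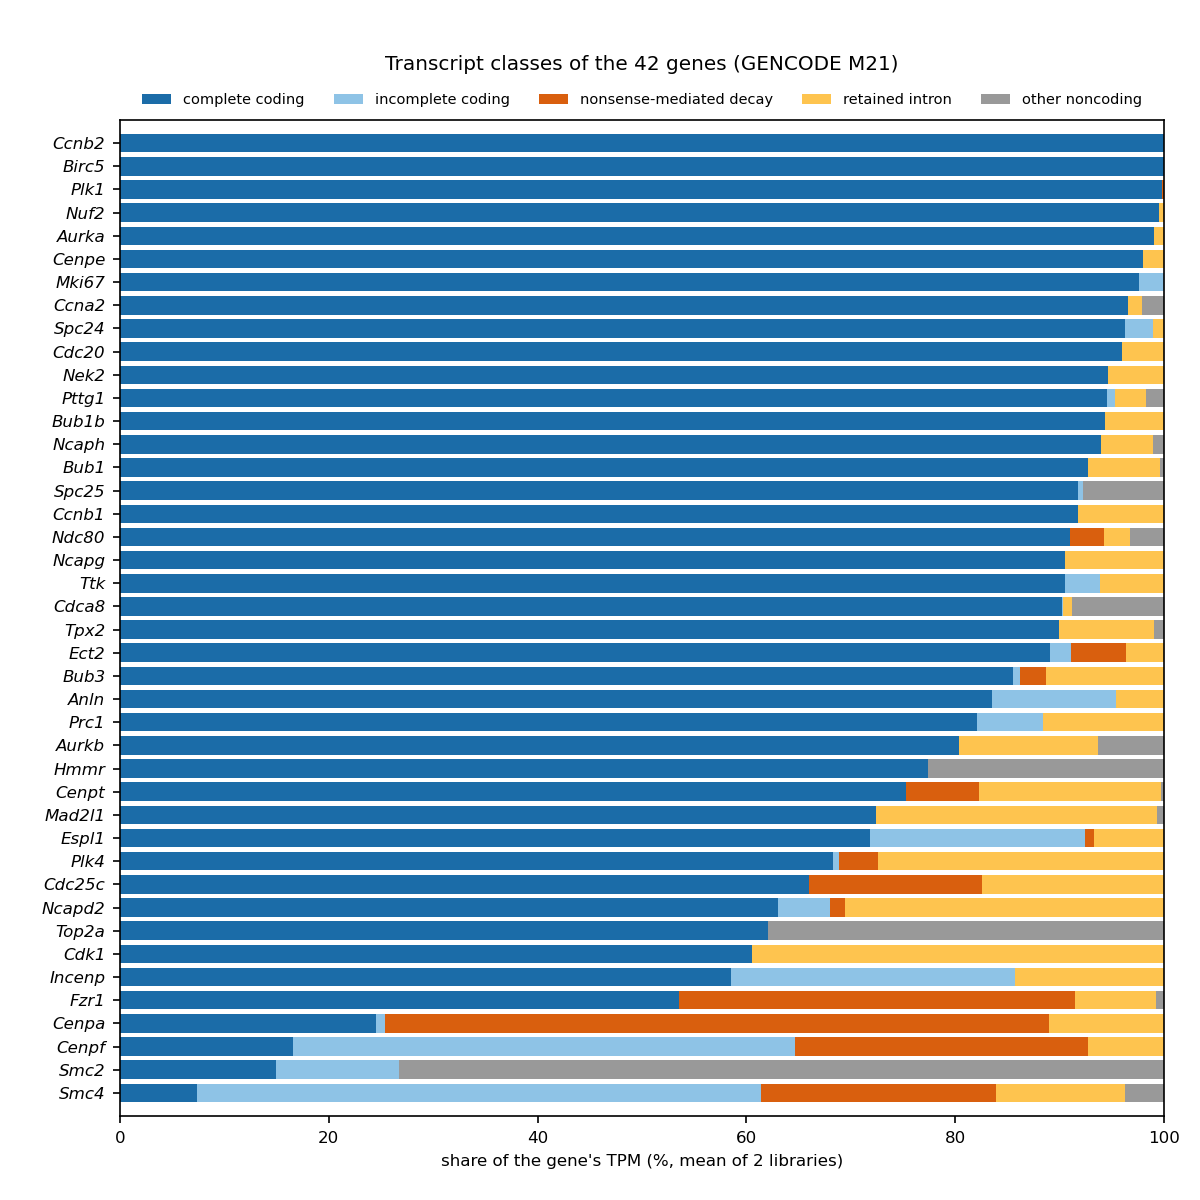
Share of each gene's TPM (x axis, percent, mean of 2 libraries) in 5 classes of annotated transcripts, for the 42 genes sorted by the complete coding share. Ccnb2 and Birc5 are all complete coding, 21 genes reach 90%, and Smc4, Smc2, Cenpf and Cenpa at the bottom are the 4 whose leading transcript is of another class.

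Counting only complete coding transcripts, a choice made after the values were seen, widened the range over the 42 members to 19.3-fold, from Smc4 at 10.2 TPM to Ccnb1 at 198 TPM. It also reordered condensin I. Ncapd2 was then highest of the 5 subunits at 91.4 ± 3.01 TPM, followed by Ncaph at 58.3 ± 0.509, Ncapg at 41.2 ± 0.460, Smc2 at 22.9 ± 0.453 and Smc4 at 10.2 ± 0.382 TPM (SD, n = 2). Smc2 and Smc4 had both been in the upper tier on all transcripts. A further scale, also added after seeing the values, divided all reads of a gene by the length of its leading complete coding transcript and by the gene reads of the library, as RPKM does. On it Ncapd2 stood at 61.7 ± 1.78, Smc4 at 38.0 ± 1.47, Ncaph at 36.6 ± 0.554, Ncapg at 27.8 ± 0.672 and Smc2 at 24.8 ± 0.790 RPKM (SD, n = 2). Smc4 and Ncaph were not separated there beyond their spread. Ncaph was above Ncapg on all 3 scales, while the places of Smc2 and Smc4 were different on each.

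**Figure D4:**
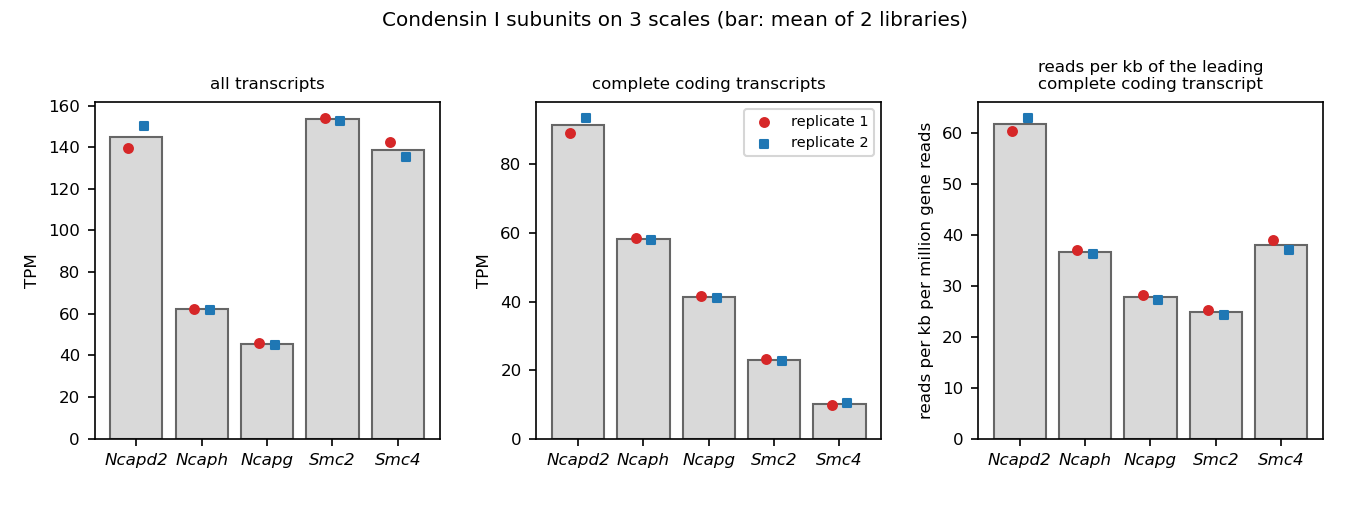
Levels of the 5 condensin I subunits as TPM of all transcripts (left), TPM of complete coding transcripts (middle) and reads per kilobase of the leading complete coding transcript, scaled by gene reads as in RPKM (right). Bars are means of the 2 libraries and points the single libraries; Smc2 and Smc4 are among the highest on the left (153 and 139 TPM) and the lowest in the middle (22.9 and 10.2 TPM).

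The ratio between the pools was taken for each gene as replicate 1 over replicate 2, from rounded expected counts scaled by TMM, with an exact 95% interval that covers counting error only. Since each pool gave 1 library, it compares the libraries. Members were close to equality, from a log2 ratio of -0.17 for Spc24 to 0.15 for Mad2l1, and no member was past 1.12-fold. None of the 42 reached 2-fold with an interval excluding equality, against 4.23% of the 19885 genes compared. That share includes genes with as few as 10 counts in a library, while the lowest member count was 705. With a minimum of 50 counts, 208 of 15158 genes reached it, so a count of 0 among 42 does not set the members apart. Their median log2 ratio was 0.00066, beside -0.013 for all genes compared. The median size of the log2 ratio was 0.064 for members and 0.094 for detected coding genes, which were not matched to the members in level. The libraries as a whole differed by more than counting noise, with a chi-square per degree of freedom of 9.03 over all genes and 5.68 per gene over the members.

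The interval lay above equality for 8 of the 42 members, against 15.5% of all genes, and below it for 12, against 16.7%, leaving 22 within counting error. Those higher in replicate 1 were Mad2l1, Mki67, Smc4, Ect2, Tpx2, Smc2, Incenp and Cenpf, with log2 ratios from 0.064 to 0.15. Those lower were Spc24, Nuf2, Espl1, Cdc25c, Aurka, Spc25, Plk1, Bub3, Birc5, Cenpa, Aurkb and Ncapd2, from -0.17 to -0.049. Equality was only just excluded for Incenp and for Aurkb. In the Ndc80 complex, 3 of 4 subunits lay below equality and the median log2 ratio was -0.15.

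Spc24 had 1293 counts in replicate 1 and 1867 in replicate 2, a log2 ratio of -0.17 with an interval from -0.27 to -0.063. Nuf2 had 1781 and 2569 counts and a log2 ratio of -0.17, with an interval from -0.25 to -0.077. Spc25 had 3348 and 4712 counts and a log2 ratio of -0.13, with an interval from -0.19 to -0.065. Ndc80 itself, at 1360 and 1795 counts, had a log2 ratio of -0.037 and an interval from -0.14 to 0.066 that includes equality. At the other end, Mad2l1 had 2629 and 3056 counts and a log2 ratio of 0.15, with an interval from 0.071 to 0.22. All these differences are small, and members of 1 role went both ways in the checkpoint, in the passenger complex, in condensin I and among the centromere proteins.

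These directions rest on the scaling. When the ERCC spike-ins were used in place of TMM, the median log2 ratio of all genes compared was -0.28 and that of the members -0.27, with 0 members above equality and all 42 below. The shares of all genes above and below equality with the spike-in factor are not given here, so these counts do not set the members apart. By construction this factor shifts every gene alike, so the members' place among all genes could not change. Markers also differed between the pools in TMM scaling. Below equality, and so lower in replicate 1, were 5 of 6 mesenchyme, 4 of 7 erythroid, 4 of 6 endothelial and 4 of 5 midbrain markers, with median log2 ratios of -0.42, -0.15, -0.21 and -0.26. Above equality were 6 of 8 neuron and 4 of 7 neural progenitor markers, with medians of 0.091 and 0.12, while 2 progenitor markers lay below and 1 midbrain and 1 endothelial marker above equality. The shares over all genes compared in TMM scaling were 15.5% above and 16.7% below equality, in genes not matched to the markers in counts. The part of the markers in the members' ratios was not tested.

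**Figure D5:**
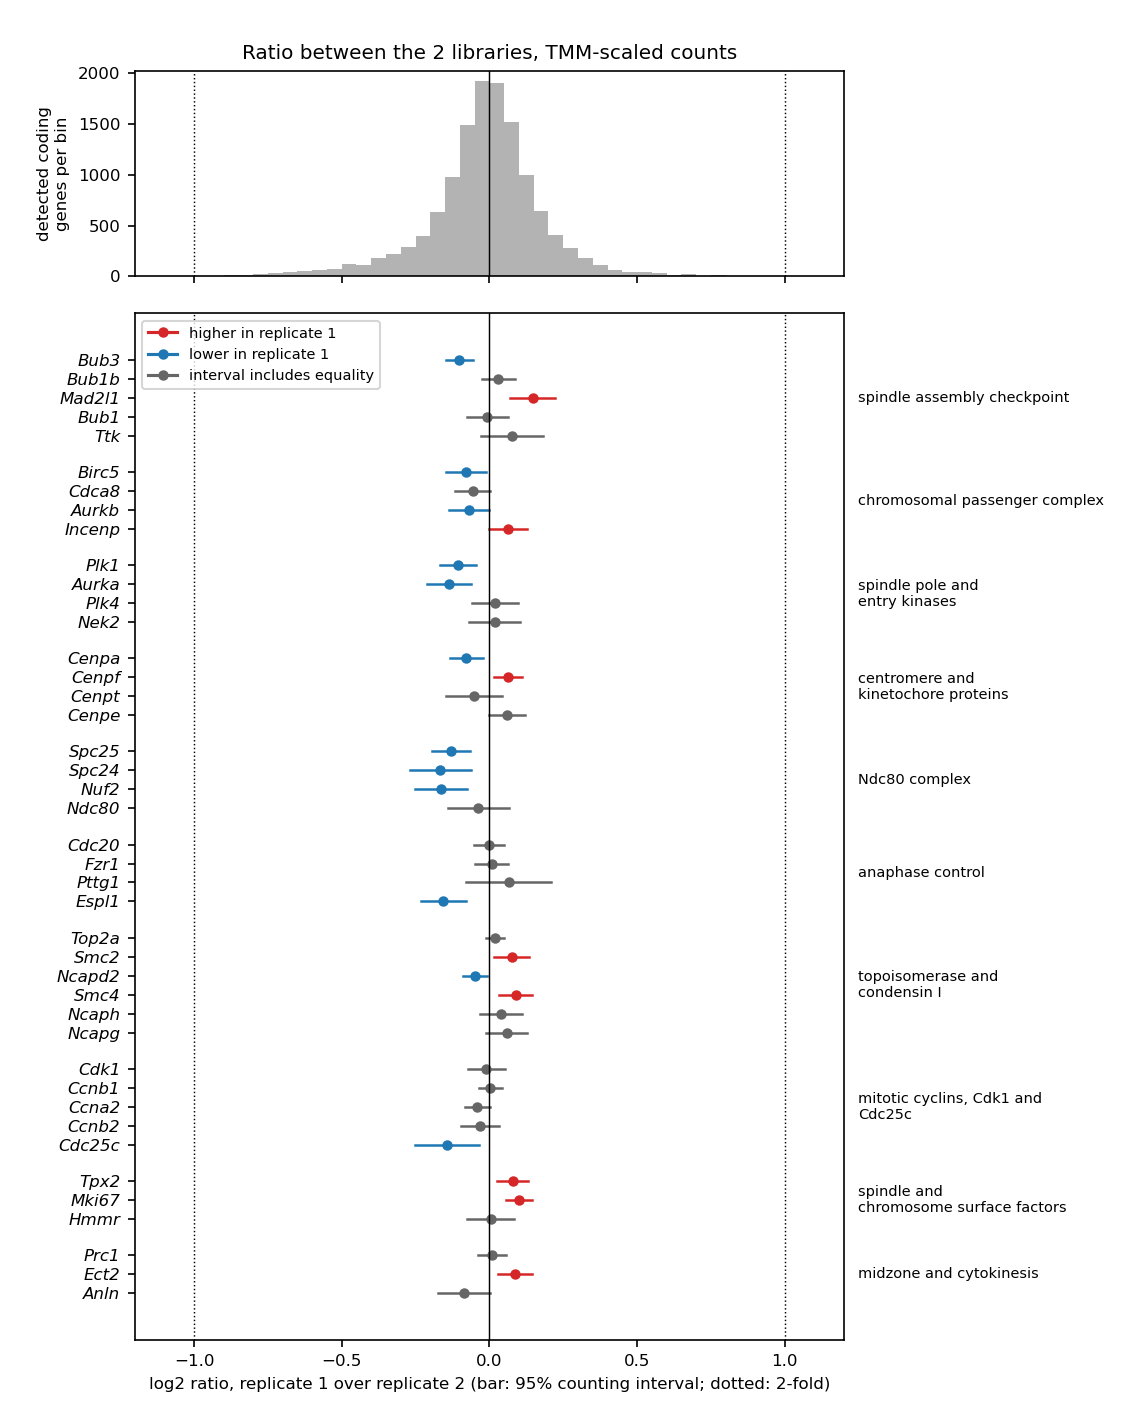
Log2 ratio of replicate 1 over replicate 2 from TMM-scaled counts (x axis), for detected coding genes as a histogram (top) and for the 42 members by role with 95% counting intervals (bottom). Red marks the 8 genes above equality, blue the 12 below and grey the 22 within counting error; all lie far inside the dotted 2-fold lines.

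The same reads had also been quantified by the authors against the older M4 annotation. Coding genes had a median M21 over M4 ratio of 0.952 in TPM, and 3 of the 42 members departed from it by more than 1.25-fold, against 12.6% of 13145 coding genes. Incenp stood at 92.6 TPM in both libraries with M21, against 63.5 and 61.9 TPM with M4. Anln was at 24.7 and 26.4 TPM with M21, against 18.7 and 20.3 TPM with M4, and Espl1 at 25.7 and 30.1 TPM, against 20.0 and 22.7 TPM. Their counts hardly moved, by factors of 1.03 for Incenp, 1.02 for Anln and 1.03 for Espl1. Transcripts that are in M21 but not in M4 held 54.3% and 51.8% of the TPM of Incenp, 49.0% and 51.9% of that of Espl1, and 17.0% and 16.0% of that of Anln. One such model, Incenp-208 of 577 bases, held 23.5 and 23.4 TPM with 209 and 264 counts. Mad2l1 moved the other way in TPM, at 73.3 and 67.7 TPM with M21 against 90.2 and 83.0 TPM with M4, although its counts were 1.18 times as high with M21.

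Genes of the same processes outside the 42 give the setting. All 34 other kinetochore and centromere genes were detected, and their median of 31.4 TPM lay within a range from Cenpo at 12.9 and 14.6 TPM to Zwint at 314 and 335 TPM. The 17 subunits and partners of the anaphase-promoting complex had a median of 111 TPM, from Anapc10 at 37.0 and 32.2 to Anapc5 at 395 and 425 TPM. For 14 genes of condensin II and cohesin the median was 36.9 TPM, and the condensin II subunit Ncaph2 was highest at 125 and 134 TPM. Other spindle and cytokinesis genes, 21 in all, had a median of 48.6 TPM, from Kifc1 at 2.91 and 3.45 to Racgap1 at 170.4 and 174 TPM. The 18 regulators of G2 and mitotic transcription and entry had a median of 29.1 TPM. Above and below equality in the pool ratio were 7 and 3 of the kinetochore genes, 2 and 4 of the anaphase-promoting complex, 4 and 2 of condensin II and cohesin, 4 and 4 of the spindle genes and 2 and 2 of the G2 regulators. Over all genes compared, which were not matched to these lists in counts, 15.5% lay above and 16.7% below equality. None of these listed genes reached 2-fold, which 4.23% of all genes did, and 208 of 15158 genes with a minimum of 50 counts.

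Set against 24 DNA replication genes, the other large block of cell cycle genes, the 42 mitotic genes stood at nearly the same level over all transcripts. The other lists of mitotic processes given above had medians from 29.1 to 111 TPM. The replication genes had a median of 85.0 TPM, from Pola1 at 13.5 and 17.0 TPM to Rrm2 at 328 and 341 TPM. The median log2(TPM + 0.1) of the mitotic genes minus that of the replication genes was -0.0032 for replicate 1 and -0.031 for replicate 2. Its mean of -0.017 ± 0.020 (SD, n = 2) was smaller than its spread between libraries. Over complete coding transcripts, a choice made after the values were seen, the difference was -0.22, with the mitotic genes lower. In the pool ratio, 0 of 24 replication genes lay above equality and 10 below, with a median log2 ratio of -0.045, beside 8 above and 12 below among the 42 mitotic genes. The shares over all genes compared, not matched in counts, were 15.5% above and 16.7% below, and a difference between the lists was not tested.

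Several members share exon bases with a gene on the opposite strand, and the strand setting of the counting is not given in the sources used here, so reads of such pairs cannot be told apart. The shared part was 13.4% of the exon bases of Ncapg with Lcorl, 12.7% of Cdc25c with Gm3550, 12.5% of Ccna2 with Exosc9 and 11.1% of Prc1 with Rccd1. It was 7.09% or less for the other members concerned, among them Plk1, Nek2, Cdca8 and Cdc20.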

How the data were processed

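Polyadenylated RNA of 2 libraries in 1 group was analysed. The authors deposited gene and transcript tables against GENCODE M4 and M21 on mm10, per the labels and manifests. Per the file headers, these hold expected counts (estimated reads, not scaled), TPM (scaled to a fixed total over all rows, spike-ins included), FPKM (per length and depth) and the percent of a gene's TPM in each transcript. The M21 tables also hold lower and upper bounds for TPM. RSEM gives columns of these names. The aligner, tool version and strand setting are not given in the sources used here. Rows naming no gene took 4.02% and 3.38% of counts and were left out of library sizes. Total expected counts were 30274342 and 38421860.

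Members were matched by symbol and all 42 were found. Members, roles and the 13 other lists were chosen with earlier results of these data known. All members could be named; of other lists only the highest and lowest members and exceptions were. Levels are deposited TPM, mean ± SD over 2 libraries. The SD is the spread between these 2 pools, which may be partly technical. Ratios used expected counts rounded to whole numbers, at least 10 in a library, TMM factors from edgeR 4.0.16 (R 4.3.3) and exact Clopper-Pearson 95% intervals; without molecular identifiers they cover counting error only. The script for ratios was tested on simulated data. DESeq2 1.42.0 gave alternative size factors. Transcript classes came from GENCODE M21 and promoter windows from RefSeq (GRCm38.p6). No test between groups was possible. M4 tables, scalings, count minimums, detection limits and pseudocounts were varied.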

Additional observations from a re-analysis of the deposited data

How the results depend on the processing

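All 42 members stayed detected at limits of 0.5 and 5 TPM, with M4 and in each library alone, and none reached 2-fold under any scaling or count minimum tried, nor 1.5-fold with TMM. The median TPM of members, 83.9, was 92.1 when TPM was rescaled over genes only and 54.8 over complete coding transcripts, an alternative chosen after seeing the data; it was 82.0 and 85.9 in the single libraries. The median log2 level minus that of DNA replication genes, -0.017, was -0.047 with M4 and -0.22 over complete coding transcripts (-0.031 to -0.0032 in single libraries). The median percent of member TPM in protein-coding transcripts, 91.0, was 94.4 with M4 and 91.1 to 91.7 in single libraries. The members' median log2 ratio of 0.00066 was -0.0093 with total gene counts and -0.27 with ERCC spike-ins. With the spike-ins 0 members lay above and 42 below equality, against 8 and 12 in TMM scaling, and the 8 reversed to log2 ratios of -0.12 for Mad2l1, -0.17 for Mki67, -0.18 for Smc4, -0.18 for Ect2, -0.19 for Tpx2, -0.19 for Smc2, -0.21 for Incenp and -0.21 for Cenpf; by construction the spike-in factor shifts every gene alike. It also gave 217 genes at 2-fold higher and 873 lower in replicate 1, against 354 and 487 with TMM. Shares of all genes above and below equality with the spike-ins are not given here. With 100 bases before the start, 8 members held TTTGAA in place of 23 (21.1% of member windows, against 5.77% of all windows). Leaving out a replicate gives no ratio between libraries. No paired analysis was possible because there is only 1 group. Depth limits little here: the lowest member count was 705.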

Other observations

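Neighbouring CCAAT matches in the promoters of mitotic genes often lay at like distances from each other. Of 20 member windows with 2 or more CCAAT matches, 8 (40%) had neighbouring matches whose first bases were 31 to 34 bases apart, against 9.79% of 3842 such windows among all. The genes were Aurka, Ccnb1, Ccnb2, Cdca8, Cdk1, Hmmr, Nek2 and Spc25. The matches of Ccnb2, at 87, 54 and 21 bases before the start, and of Cdk1, at 80 and 48 bases before it, can be read in the printed stretches. The range of distances was chosen after the positions were seen, and no test was made.

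Ranks of the 42 genes changed most for Smc2, Cenpf and Smc4 when reads were counted per kilobase of the leading complete coding transcript. Smc2 was at rank 10 on all transcripts and at rank 32 on that scale, Cenpf at 19 and 38, and Smc4 at 13 and 21. Cenpa held rank 3 on both scales, although its complete coding TPM placed it at rank 24. Ccnb1 was at rank 1 both per kilobase and in complete coding TPM, at rank 4 on all transcripts.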
